A study of Mus musculus with 6 samples.

Results

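Oligodendrocytes are the cells that wrap axons of the brain in myelin, a stack of lipid-rich membrane held together by a small set of abundant proteins. They arise from oligodendrocyte precursor cells, which keep dividing in the adult brain and are recognized by the platelet-derived growth factor receptor Pdgfra and the proteoglycan Cspg4, also called NG2. As a precursor differentiates it switches these genes off and then expresses the genes of myelin, and both sets are used to follow precursors and mature cells in a tissue.

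The genes described here are 9 of this lineage, found by their symbols among the 35415 genes of the deposited tables, and all 9 were present. They are Mbp, Mobp, Mag, Mog, Cnp and Cldn11 of mature myelin, Bcas1 of oligodendrocytes that have begun to myelinate, and the precursor genes Pdgfra and Cspg4. They were measured in the lateral septum (LS) of wild-type female C57BL/6 mice, about 8 weeks old on arrival, which were fed for 12 weeks either a control chow or the same chow with olanzapine at 50 mg/kg of feed. Olanzapine is a second-generation antipsychotic that causes weight gain, and the comparison asks which genes of the LS differ after long exposure. Each of the 3 libraries per group was made from the pooled septa of 3 mice, so n = 3 pools per group throughout and the spread between single mice is unknown.

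The libraries held between 38208153 and 39868872 counts on genes. The tissue had the genes of oligodendrocytes of the central nervous system at high levels, while Pmp2 of peripheral Schwann cells was at or near 0, averaging 0.0248 FPKM with control chow and 0.0128 FPKM with olanzapine. Of 4 genes typical of the septum, the GABA-synthesis gene Gad1 was at 113 to 155 FPKM, the transcription factor gene Zic1 at 52.7 to 67.1 FPKM in the control pools and 31.6 to 51.4 FPKM in the olanzapine pools, the channel gene Trpc4 at 5.85 to 11.6 FPKM and the receptor gene Crhr2 at 2.20 to 4.23 FPKM, so none was absent. Zic1 was lower in every olanzapine pool, and the part of dissection in the results was not tested. Some differences between libraries reached beyond the lineage. The summed FPKM of 7 choroid plexus markers ran from 43.0 to 5336 among the control pools and from 27.1 to 3430 among the olanzapine pools, and the cortical neuron gene Slc17a7 stood at 221 FPKM in olanzapine pool 1 against 3.64 to 18.7 in the other 5. All 8 hepatocyte markers passed the test as higher in the olanzapine pools, as did 1.83% of all tested genes, with a median log2 fold change of 4.17.

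Promoters are printed for 4 of the genes, those of Pdgfra and Cspg4 because these were the members with no overlap between the groups, and those of Mobp and Cnp as myelin genes to set beside them. Each sequence runs 5′ to 3′ on the strand of the gene, from 250 bases before to 50 bases after the annotated start, and was taken from RefSeq (GRCm38.p6). Capitals mark ACAAAG, the core of sites bound by SOX factors such as Sox10, and GGGCGG, the GC box, on either strand.
Pdgfra, chr5:75152001-75152300, plus strand: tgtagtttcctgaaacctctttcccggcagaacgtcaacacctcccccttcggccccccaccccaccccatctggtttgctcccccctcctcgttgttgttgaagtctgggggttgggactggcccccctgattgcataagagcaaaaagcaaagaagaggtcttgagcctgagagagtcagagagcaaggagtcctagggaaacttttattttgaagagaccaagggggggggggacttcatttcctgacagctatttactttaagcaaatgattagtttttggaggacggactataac
Cspg4, chr9:56864854-56865153, plus strand: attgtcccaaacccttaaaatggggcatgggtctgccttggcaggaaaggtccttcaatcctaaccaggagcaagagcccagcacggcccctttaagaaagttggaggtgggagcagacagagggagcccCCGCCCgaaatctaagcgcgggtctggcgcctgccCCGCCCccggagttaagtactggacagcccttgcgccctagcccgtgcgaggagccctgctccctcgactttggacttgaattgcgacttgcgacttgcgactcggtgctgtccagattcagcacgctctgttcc
Mobp, chr9:120149492-120149791, plus strand: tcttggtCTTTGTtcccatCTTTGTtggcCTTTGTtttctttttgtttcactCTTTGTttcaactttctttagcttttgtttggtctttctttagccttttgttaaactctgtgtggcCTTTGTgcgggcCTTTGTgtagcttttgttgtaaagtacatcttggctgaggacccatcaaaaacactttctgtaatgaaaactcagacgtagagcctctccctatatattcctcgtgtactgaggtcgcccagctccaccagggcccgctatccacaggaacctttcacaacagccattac
Cnp, chr11:100574689-100574988, plus strand: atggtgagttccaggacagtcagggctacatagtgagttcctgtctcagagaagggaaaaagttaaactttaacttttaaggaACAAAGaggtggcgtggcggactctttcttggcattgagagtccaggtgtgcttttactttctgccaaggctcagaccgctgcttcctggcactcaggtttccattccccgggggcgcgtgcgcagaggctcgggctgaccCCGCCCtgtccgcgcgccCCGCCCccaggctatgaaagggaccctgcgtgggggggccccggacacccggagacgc
The window of Pdgfra held neither motif. That of Cspg4 held 2 GC boxes and no ACAAAG, that of Mobp held ACAAAG at 6 places, and that of Cnp held it at 1 place together with 2 GC boxes. Among the 32851 promoters of the table, 18.7% held ACAAAG and 35.7% held GGGCGG. The E-box CAGCTG and the sequence TATAAA were searched on both strands too, and none of the 4 windows held either. Of the 9 genes, 7 had a promoter in the table.

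The levels of the 9 genes were first compared per length, as the FPKM that the authors deposited. Mbp, which encodes myelin basic protein and compacts the cytoplasmic faces of the sheath, had a mean of 611 FPKM over the 6 pools, and only 28 of all genes had a higher mean. Cnp, an enzyme that keeps channels of cytoplasm open within myelin, followed with 197 FPKM, Mobp, a small basic protein of compact myelin, with 151 FPKM, and Cldn11, the claudin of the tight junctions between myelin layers, with 121 FPKM. In every pool Cnp stood above Mobp and Mobp above Cldn11, although their ranges over the pools overlapped. Bcas1 had 93.1 FPKM and Mag, an adhesion molecule of the innermost layer that faces the axon, had 90.7 FPKM, and Bcas1 was above Mag in 3 of the 6 pools, so their order is not set. Mog, a glycoprotein of the outermost layer, had 50.5 FPKM, below every pool of Mag. Both precursor genes were far lower. Pdgfra had 7.73 FPKM and Cspg4 had 2.55 FPKM, and no pool of one overlapped with the other.

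**Figure D1:**
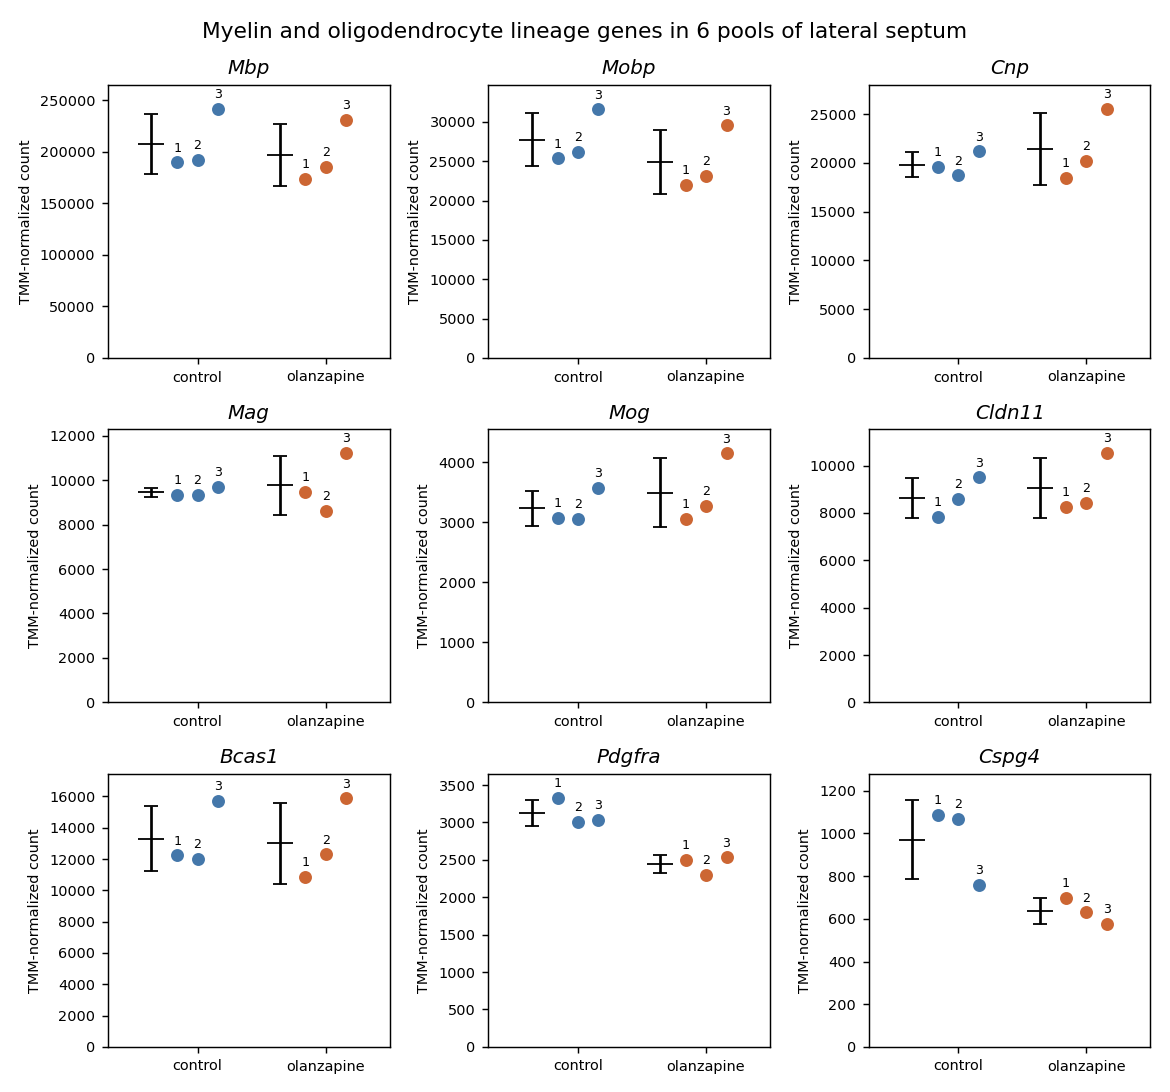
TMM-normalized counts of the 9 genes in each pool, with the pool number beside each point and the mean ± SD of the 3 pools to its left; each vertical axis starts at 0. Pool 3 was the highest of its group in all 7 genes of myelin and of newly myelinating cells, where the groups overlap, while the olanzapine pools of Pdgfra and Cspg4 lie below all control pools.

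For the comparison between groups, counts were normalized with TMM and tested with edgeR's quasi-likelihood method over 17255 genes, and a gene was called at a Benjamini-Hochberg adjusted p under 0.05. Values per pool are given for pools 1, 2 and 3 in this order, and the log2 fold change is olanzapine over control. Of the 9 genes, 0 were called higher and 0 lower, where 2.32% of all tested genes were called, 1.83% as higher and 0.493% as lower. At an unadjusted p under 0.05 there were 2 of the 9, Pdgfra and Cspg4, both lower in the olanzapine pools, where 17.6% of all genes had such a p and 8.4% had it as lower. DESeq2 called both of them lower, as it did 2.42% of the genes for which it gave an adjusted p. With upper-quartile normalization edgeR called Pdgfra and 0.556% of all genes lower. The groups did not overlap in these same 2 genes, a separation that was seen in 24.3% of all tested genes, with the olanzapine pools below in 11%. In bulk tissue, fewer cells of a type and less RNA per cell cannot be told apart.

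Among the genes of compact myelin, Mbp had normalized counts of 189584, 192220 and 241323 with control chow, against 173764, 185276 and 230481 with olanzapine. Pool 3 was the highest of both groups, and the groups overlapped. The log2 fold change was -0.08, SE 0.15 (edgeR, Benjamini-Hochberg adjusted p = 0.827), and its 95% interval ran from 25.2% lower to 19.6% higher. Mobp had normalized counts of 25367, 26202 and 31599 with control chow, against 21967, 23166 and 29567 with olanzapine. Again pool 3 was the highest of each group. Its log2 fold change was -0.15, SE 0.14 (edgeR, Benjamini-Hochberg adjusted p = 0.598), with an interval from 27.6% lower to 11.5% higher.

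The 4 genes of the outer, inner and junctional parts of the sheath gave small positive values that did not pass the test. Cnp had normalized counts of 19558, 18713 and 21185 with control chow, against 18443, 20241 and 25540 with olanzapine, a log2 fold change of 0.11 with an interval from -0.17 to 0.40. Mag had normalized counts of 9346, 9317 and 9680 with control chow, against 9454, 8597 and 11230 with olanzapine, and its log2 fold change was 0.05 with an interval from -0.18 to 0.28. The control pools of Mag thus lay within 1.04-fold of each other, the tightest control group of the 9 genes, and olanzapine pool 3 stood above all other pools. Mog had normalized counts of 3073, 3053 and 3574 with control chow, against 3059, 3273 and 4149 with olanzapine, and Cldn11 had 7832, 8594 and 9500 against 8245, 8416 and 10538. Their log2 fold changes were 0.11 and 0.07, and in both genes olanzapine pool 3 was the highest of all pools. Without olanzapine pool 3 the log2 fold changes of Cnp, Mag, Mog and Cldn11 were between -0.07 and -0.03, so their sign rested on that pool.

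Bcas1, listed here for oligodendrocytes that have begun to myelinate, had normalized counts of 12231, 11995 and 15697 with control chow, against 10833, 12298 and 15874 with olanzapine. Its RNA was about as abundant as that of Mag and followed the 6 mature myelin genes over the pools, with a Pearson's r of 0.950. It was thus not read as particular to an intermediate stage. The highest pool exceeded the lowest 1.31-fold within the control group and 1.47-fold within the olanzapine group, and both of the highest were pool 3. The log2 fold change between the groups was -0.03 with an interval from -0.40 to 0.33 (edgeR, Benjamini-Hochberg adjusted p = 0.937). For these 7 genes the pools of one group differed by more than the group means did, and the intervals do not exclude differences of up to 31.7% higher, in Mog and Cnp, or 27.6% lower, in Mobp.

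Pdgfra encodes the receptor through which platelet-derived growth factor keeps precursors dividing. It had normalized counts of 3327, 3012 and 3036 with control chow, against 2495, 2300 and 2533 with olanzapine. Every olanzapine pool lay below every control pool, and within each group the highest pool exceeded the lowest only 1.10-fold. The control mean was 3125 ± 176 and the olanzapine mean 2443 ± 125 (SD, n = 3 pools each), 21.8% lower by the fitted log2 fold change of -0.36, SE 0.07. The 95% interval ran from 30.5% to 12.1% lower. The Benjamini-Hochberg adjusted p of edgeR was 0.0525, just outside the threshold, 0.0427 with upper-quartile normalization and 0.00622 with DESeq2. In the 6 fits on 5 pools the log2 fold change stayed between -0.38 and -0.31, with adjusted p from 0.0513 to 0.181. Without olanzapine pool 1, the pool with high Slc17a7, it was -0.37.

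Cspg4 encodes the NG2 proteoglycan on the surface of precursors. It had normalized counts of 1087, 1068 and 760 with control chow, against 698, 630 and 576 with olanzapine. Control pool 3 stood apart from the other control pools and close to the olanzapine pools, yet the groups did not overlap. The control mean was 972 ± 183 and the olanzapine mean 635 ± 60.9 (SD, n = 3 pools each), 34.7% lower by the fitted log2 fold change of -0.61, SE 0.15, and its interval ran from 48.8% to 16.8% lower. For Cspg4 edgeR gave a Benjamini-Hochberg adjusted p of 0.0887, and 0.04 without control pool 3, while DESeq2 gave 0.0076. The adjusted p of the edgeR fits that left out 1 other pool ran up to 0.276. Without olanzapine pool 1 the log2 fold change was -0.69.

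**Figure D2:**
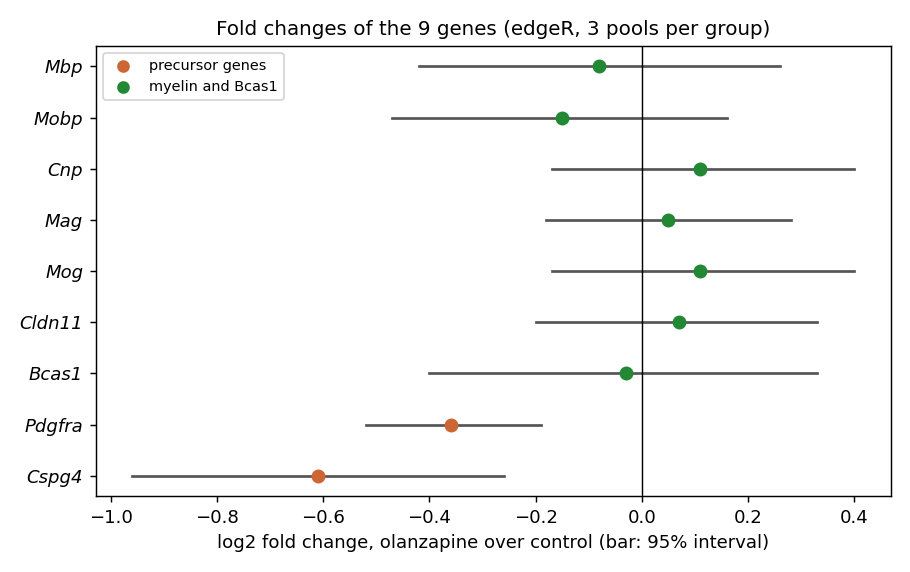
Log2 fold changes of the 9 genes, olanzapine over control, with bars for the 95% interval of the edgeR fit (3 pools per group). The intervals of the 7 genes of myelin and of newly myelinating cells span 0, and those of Pdgfra (-0.52 to -0.19) and Cspg4 (-0.96 to -0.26) lie below 0.

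Since the amount of myelin RNA varied between pools, each gene was also set against the geometric mean FPKM of the 6 mature myelin genes in the same pool. That mean was 135, 139 and 161 FPKM with control chow, against 131, 142 and 174 FPKM with olanzapine, with overlapping groups. On the log2 scale the ratio of Pdgfra to it was -3.90, -4.06 and -4.25 with control chow, against -4.25, -4.42 and -4.62 with olanzapine. All 3 olanzapine ratios were the lower ones, but control pool 3 and olanzapine pool 1 both rounded to -4.25. The ratio of Cspg4 was -5.32, -5.36 and -6.05 with control chow, against -5.90, -6.10 and -6.57 with olanzapine, and here the groups overlapped through control pool 3. Within the mature genes the ratios differed little. That of Mobp was between 0.08 and 0.18 in the control pools and between -0.07 and -0.03 in the olanzapine pools, and that of Mog was between -1.61 and -1.58 against -1.53 to -1.48, and that of Mbp between 2.06 and 2.18 against 1.99 to 2.03. The shares of Mobp and Mbp among them were thus lower and that of Mog higher in every olanzapine pool, while the groups overlapped in Mag, Cnp and Cldn11. The log ratios of the 6 genes to their own mean sum to 0, so that some must be lower where others are higher. No test was run on these ratios, since they are scores over the chosen genes.

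Pdgfra and Cspg4 are not particular to precursors. Pdgfra is also expressed by fibroblasts of the meninges, and Cspg4 by mural cells, the pericytes and smooth muscle cells of blood vessels. Of 8 meningeal fibroblast markers 0 were called, and their summed FPKM was 7.77 to 14.7 in the control pools and 6.02 to 13.2 in the olanzapine pools, while Col1a2 and Dcn, the most abundant of them, had log2 fold changes of -0.40 and -0.28 that did not pass the test. The median of the 8 was -0.17, with 3 positive, Slc22a6 at 0.85, Slc6a13 at 0.18 and Col3a1 at 0.12. Of 8 mural cell markers 0 were called by edgeR, the median log2 fold change was -0.03, with Vtn, the most abundant, at 0.17, Tagln at 0.37 and Abcc9 at -0.52, and DESeq2 called 1 lower. They had a summed FPKM of 45.2 to 51 in the control pools and 39.6 to 62.2 in the olanzapine pools. That 1 was the pericyte receptor gene Pdgfrb, which had normalized counts of 864, 862 and 758 with control chow, against 687, 604 and 568 with olanzapine, the same order of the 6 pools as in Cspg4. Its log2 fold change was -0.42 (edgeR, Benjamini-Hochberg adjusted p = 0.103), and DESeq2 gave an adjusted p of 0.0345. The 6 endothelial markers all had negative log2 fold changes, with a median of -0.41 and 0 called, and summed to 40.7 to 46.6 FPKM in the control pools and to 27.9 to 50.2 FPKM in the olanzapine pools, where olanzapine pool 1 was the highest of all 6 pools. These counts rested on that pool. Without it 3 of the 6 endothelial markers were called lower by edgeR, Flt1 at a log2 fold change of -0.98, Cdh5 at -1.01 and Pecam1 at -0.81 (Benjamini-Hochberg adjusted p of 0.00426, 0.0222 and 0.028), and the median of the 6 was -0.78. In the same fit 2 of the 8 mural markers, Rgs5 and Abcc9, were called lower at -0.59 and -0.76 (adjusted p of 0.0139 and 0.0375), with a median of -0.51 and 7 of 8 negative, and of all genes tested 1.11% were called lower. All 8 fibroblast markers were then negative, with a median of -0.43 and 0 called. The summed FPKM of the endothelial and of the mural markers was below every control pool in olanzapine pools 2 and 3 and above every control pool in olanzapine pool 1, while Pdgfra and Cspg4 were below every control pool in all 3, as were Pdgfrb and Abcc9. None of these markers was at 0 in all pools, and their part in the lower values of Pdgfra and Cspg4 was not tested.

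Of 16 further genes of precursors and of cells committed to differentiate, 1 was called lower and 0 higher, against 0.493% and 1.83% of all tested genes. The median log2 fold change was -0.08, where the median of all tested genes was 0.0039. The called gene was Ptprz1, a receptor-type phosphatase of precursors that astrocytes also express. It had normalized counts of 14008, 12526 and 11648 with control chow, against 8917, 8590 and 9584 with olanzapine, so that it fell without overlap, by a log2 fold change of -0.50, SE 0.09 (edgeR, Benjamini-Hochberg adjusted p = 0.0298). The call was lost without control pool 1 (0.11), control pool 2 (0.114), olanzapine pool 2 (0.104) or olanzapine pool 3 (0.0792), all adjusted p from the same test. Gpr17, a receptor of committed precursors, and Vcan, an extracellular matrix proteoglycan, had log2 fold changes of -0.12 and -0.05 and were not called, nor were Cspg5, Sulf2 and Cacng4, the 3 genes of the list with the highest FPKM, whose log2 fold changes were 0.07, -0.25 and -0.10. The 8 astrocyte markers had a median log2 fold change of -0.17, and 0 were called by edgeR or DESeq2, with 3 lower at an unadjusted p under 0.05, as were 8.4% of all tested genes. Their summed FPKM was 538 to 581 in the control pools and 464 to 520 in the olanzapine pools, a separation that rested on the glutamate transporter gene Slc1a2, since without it the sums were 339 to 371 FPKM in the control pools and 292 to 349 FPKM in the olanzapine pools and overlapped. In normalized counts the olanzapine pools were below in 2 of the 8, and in 11% of all tested genes. The part of astrocytes in the lower Ptprz1 was not tested.

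None of the 12 transcription factors of the lineage was called by edgeR or DESeq2, where edgeR called 2.32% of all tested genes and DESeq2 called 2.42% lower. At an unadjusted p under 0.05 there was 1, Zfp536, lower at a log2 fold change of -0.35, where 8.4% of all tested genes were lower. The groups did not overlap in 2, Zfp536 and Nkx2-2, both with the olanzapine pools below, as in 11% of all tested genes. The median log2 fold change of the 12 was -0.09, with 4 positive and 8 negative. Olig1 and Olig2, which are needed to make the lineage, and Sox10, which acts in both precursors and mature cells, had log2 fold changes of 0.03, 0.03 and 0.10. They averaged 80.9, 17.3 and 24.5 FPKM with control chow and 83.8, 18 and 26.7 FPKM with olanzapine, and Sox8, a relative of Sox10, was at 20.1 FPKM in both groups. Myrf, the factor that switches on myelin genes, had a log2 fold change of -0.05, and Nkx2-2, a factor of differentiating precursors, of -0.15. Tcf7l2, of newly formed oligodendrocytes, had a log2 fold change of -0.50, SE 0.34, and its FPKM ran from 2.47 to 7.81 over the pools.

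In the 31 further genes of myelin and mature oligodendrocytes, edgeR and DESeq2 called 0, where edgeR called 2.32% of all tested genes and DESeq2 called 2.42% lower. Of the 31, 0 had an unadjusted p under 0.05, as 17.6% of all tested genes had, and the median log2 fold change was 0.01. Trf, the iron carrier transferrin, and Mal, a proteolipid of myelin, had log2 fold changes of 0.03 and 0.07. Ugt8a, Gal3st1 and Fa2h, enzymes of the galactolipids and hydroxylated lipids of myelin, had -0.14, -0.14 and 0.00. The deacetylase Sirt2 was the 1 gene of these 31 with all olanzapine pools above the control pools, as were 13.3% of all tested genes, at a log2 fold change of 0.14 and an adjusted p of 0.342 from the same edgeR test.

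Of 18 ligands, receptors and inhibitors that act on the lineage, 1 was called lower and 0 higher, and 5 were lower at an unadjusted p under 0.05, against 0.493% and 8.4% of all tested genes called lower and lower at that p. The groups did not overlap in 5, all with the olanzapine pools below as in 11% of all tested genes, among them the adhesion receptor gene Adgrg1 at a log2 fold change of -0.28 and the semaphorin gene Sema6a at -0.26. The called gene was Notch1, the receptor that holds precursors undifferentiated and that other cells of the brain express too. It had normalized counts of 1993, 2055 and 1925 with control chow, against 1366, 1178 and 1321 with olanzapine. It fell by 0.63 on the log2 scale, SE 0.08 (edgeR, Benjamini-Hochberg adjusted p = 0.00824), and was called in all 6 fits that left out 1 pool with an adjusted p of at most 0.0494. Its ligand Jag1 had normalized counts of 253, 268 and 244 with control chow, against 179, 132 and 139 with olanzapine, a log2 fold change of -0.76 that edgeR did not call (adjusted p = 0.0699) and DESeq2 did (adjusted p = 0.00682). The other Notch ligand of the list, Dll1, had a log2 fold change of -0.02. Pdgfa, the ligand of Pdgfra, had 1255, 1328 and 1341 against 1491, 1256 and 1359 normalized counts and a log2 fold change of 0.07, with overlapping groups. Rtn4, the source of the inhibitor Nogo, and the receptors Tnfrsf21 and Fgfr3 had the highest FPKM of the list and log2 fold changes of -0.07, -0.26 and -0.07 that did not pass the test. The Nogo receptor gene Rtn4r and its partner Lingo1 had log2 fold changes of 1.28 and 0.51 that did not pass the test and that rested on olanzapine pool 1, where Rtn4r stood at 25.3 FPKM and Lingo1 at 41.7 FPKM against at most 6.01 and 16.3 FPKM in the other pools. Without that pool both turned negative, Rtn4r to -0.40, not called, and Lingo1 to -0.33, which was called lower (edgeR, Benjamini-Hochberg adjusted p = 0.0419).

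**Figure D3:**
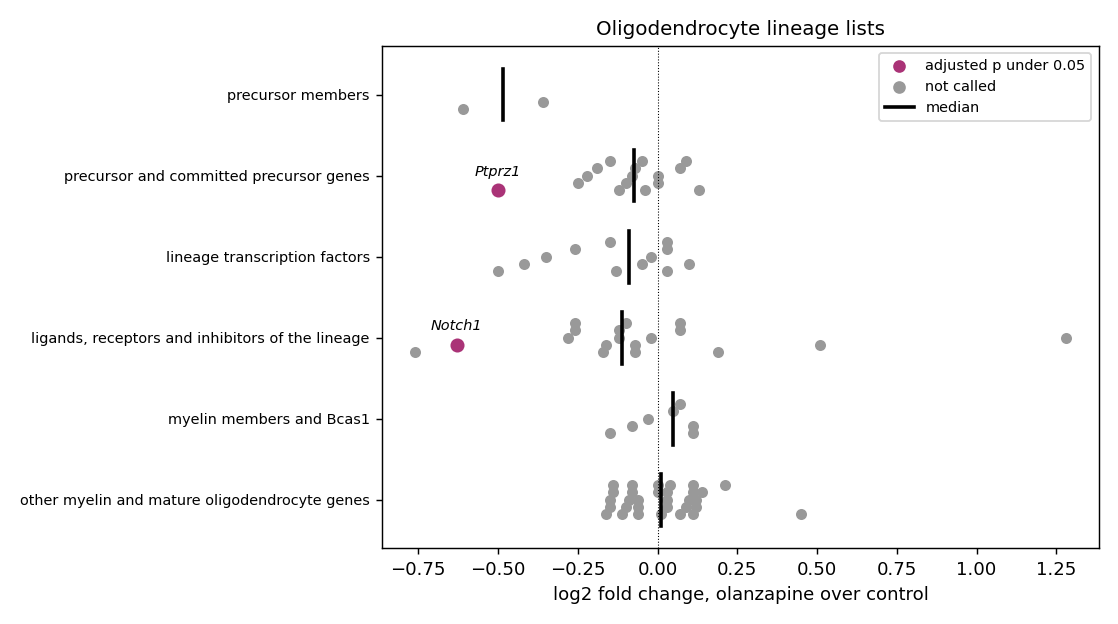
Log2 fold changes of the 9 genes and of 77 further lineage genes, 1 point per gene with a vertical spread for legibility only, and the median of each list as a black bar. Ptprz1 and Notch1 alone passed an adjusted p under 0.05 (edgeR, 3 pools per group), and the 31 further myelin genes centre on a median of 0.01.

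Across all genes the fold change moved with the length of the transcript. The median log2 fold change was 0.08 for genes whose longest annotated transcript is under 1000 bases and -0.17 for those of 8000 bases or more, where 4.95% of genes were called lower. The longest transcript of Pdgfra has 6834 bases, and genes between 6000 and 8000 bases had a median of -0.10. That of Cspg4 has 8121 bases. The mature genes are shorter, from 1704 bases in Mog to 4797 in Mbp. With an offset per library that removes the trend with length, the log2 fold change of Pdgfra was -0.25 and that of Cspg4 -0.47 (edgeR, Benjamini-Hochberg adjusted p of 0.102 and 0.128). The same offset took Notch1 from -0.63 to -0.47 and Ptprz1 from -0.50 to -0.36. Both stayed called, with adjusted p of 0.0103 and 0.0486 from the same edgeR test. Nuclear-retained long noncoding RNAs moved with the groups as well, and 5 of 7 were called higher, as were 1.83% of all tested genes. Their summed FPKM was 311 to 370 in the control pools and 652 to 742 in the olanzapine pools. Their part in the values of the lineage was not tested.

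**Figure D4:**
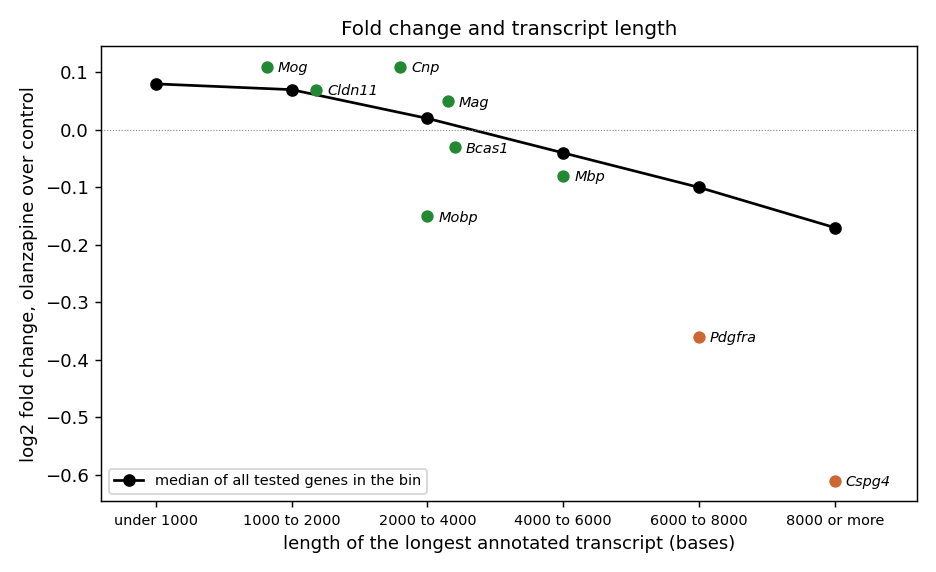
Log2 fold change, olanzapine over control, against the length of the longest annotated transcript in 6 bins, with the median of all tested genes in each bin as a black line and the 9 genes as points (offset sideways within a bin where they crowd). The medians go from 0.08 to -0.17 as length grows, and Pdgfra (-0.36) and Cspg4 (-0.61) lie below the medians of their bins, -0.10 and -0.17.

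The genes whose pattern over the 6 pools was most like that of the 6 mature myelin genes were Gatm, Fam204a, Npepps, Rnf13 and Rps29, with Pearson's r between 0.979 and 0.994 to the mean standardized log2 CPM of the 6 genes, over 6 pools and among 14270 genes. Gatm, an enzyme of creatine synthesis, had 76.8, 78.3 and 90.5 FPKM with control chow, against 72.1, 80.4 and 99.2 FPKM with olanzapine, again with pool 3 the highest of each group. Bcas1, which is not among the 6, had an r of 0.950 with them, against -0.011 for Pdgfra and -0.458 for Cspg4. For the mean of Pdgfra and Cspg4 the most alike were Cdh2, B4galt6, Glg1, Nalcn and Ube3a, with r between 0.992 and 0.994, and this pattern contains the difference between the groups. Cdh2, which encodes N-cadherin, was the only one of these 5 that was called, at a log2 fold change of -0.53 (edgeR, Benjamini-Hochberg adjusted p = 0.0233). These correlations describe 6 points that share tissue, depth and dissection, and no p is given for them.

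Pdgfra lies at chromosome 5, 75152292 to 75198215, and Cspg4 at chromosome 9, 56865033 to 56899870, both on the plus strand (GRCm38). Exons of Cspg4, Mag, Mog, Cldn11 and Mbp overlap with no other annotated gene. Those of Pdgfra overlap with Gm42802 and Gm42803 on the other strand and with Mir7025 on its own, those of Cnp with Dnajc7 and those of Bcas1 with Bcas1os1 and Bcas1os2 on the other strand, and those of Mobp with Gm38642 on its own. The strand setting of the counting is not stated, so reads of the overlaps between strands cannot be told apart, and those on 1 strand could not be separated by any strand setting.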

How the data were processed

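Lateral septum RNA of 6 pools of mice was sequenced as paired-end libraries. Per the submitters' notes and the paper, the authors trimmed reads with fastp, aligned them with HISAT2 to mm10 and counted them per gene with HTSeq, and they deposited these raw counts together with FPKM, which divide fragments by transcript length and library size, from the same alignments. Versions, annotation and strand setting are not given in the sources used here. Of the columns, 0 were unused and 0 genes lacked a name.

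Groups came from the labels. Counts were filtered with filterByExpr (minimum count 10, minimum total 15) and library sizes scaled by TMM. The quasi-likelihood test of edgeR 4.0.16 (R 4.3.3) then compared the groups, with no covariate. Standard errors are the log2 fold change divided by the square root of F. A 95% interval uses the total degrees of freedom of the fit. DESeq2 1.42.0 and limma 3.58.1 gave alternatives. FPKM served for levels. Raw counts of the 9 genes ran from 573 to 243426 per library. The p-values measure only the spread between pools.

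The fit was tested on simulated counts. No 2 libraries agreed within sampling noise (chi-square per degree of freedom of 22.3 or more for every pair). Genes named are the 9 members, the called genes and the 3 with the highest FPKM of each lineage list, for other cell types the genes beside a result, and the 5 most like each profile, while Sirt2, Adgrg1, Sema6a, Zfp536, Jag1, Dll1, Slc17a7, Pdgfa, Rtn4r, Lingo1, Tcf7l2, Nkx2-2, Myrf, Olig2, Gpr17, Vcan, Ugt8a, Gal3st1, Fa2h and the 4 septum genes were added after their values were seen. Some genes that this rule names are not reported here. The members and lists were chosen with earlier results of these data known. Positions came from GENCODE M21 and promoters and their motifs from RefSeq, with 4 motifs chosen for the search. Length and GC content were known for 92.7% of tested genes.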

Additional observations from a re-analysis of the deposited data

How the results depend on the processing

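Over the 17 alternatives, 139 of the 153 values of the 9 genes kept their direction and their side of the threshold, 5 crossed it and 9 changed sign. The changes of sign all came from leaving out 1 pool. Over those 6 fits the log2 fold change of Mbp ran from -0.21 to 0.05, Mag from -0.07 to 0.13, Mog from -0.03 to 0.20, Cnp from -0.04 to 0.21, Cldn11 from -0.05 to 0.15 and Bcas1 from -0.20 to 0.11. The number of the 9 genes called lower, 0 with edgeR, was 2 with DESeq2 and 2 at an unadjusted p under 0.05, 1 with upper-quartile normalization and 1 without a count filter (Pdgfra), and 0 to 1 with 1 pool left out (Cspg4, without control pool 3). The called precursor gene, Ptprz1, gave a count of 0 with the replicate block, with limma on log2(FPKM + 1) without a filter and with a limit on the fold change, and 0 to 1 with 1 pool left out. The count of ligands, receptors and inhibitors called lower was 2 with DESeq2 (Notch1 and Jag1), 0 with a limit on the fold change and 1 to 3 with 1 pool left out (3 without olanzapine pool 1, Notch1, Jag1 and Lingo1). The fits with 1 pool left out keep 2 pools in a group. Offsets for GC content and for transcript length were added after seeing the data and changed no call of the 9 genes.

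Same-numbered pools of the groups did not deviate together over all genes (r of -0.00262, 0.0616 and -0.255), and 0 of 6 pools correlated best with its own number. In the 7 genes of myelin and of newly myelinating cells, however, pool 3 was the highest of both groups. The labels state no pairing, and whether same-numbered pools shared a batch was not tested. With the replicate number as a block, 140 genes were called in place of 401, 0 of the 9 members (adjusted p of 0.102 for Pdgfra and 0.0857 for Cspg4), and the adjusted p of Ptprz1 was 0.0862 and that of Notch1 0.0454. DESeq2 called 1097 genes. The number of genes called with 1 pool left out ran from 131 to 508. In FPKM and log2 CPM, all 9 genes had the same highest pool within each group, and 5 of the 9 had the same order of all 6 pools. An exact permutation test of 3 against 3 pools cannot go below 0.1.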
